A study of Owenia fusiformis with 14 samples.

Results

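The 0.2% and 0.4% DMSO controls of the annelid *Owenia fusiformis* were compared at the blastula stage, 6 hours post fertilisation (hpf). The libraries were the 2 labelled 02DMSO and the 2 labelled 04DMSO, 4 of the 14 libraries in the series, and both groups were whole embryos raised in artificial seawater. 02DMSO embryos were kept in 0.2% DMSO from 4 to 6 hpf and served as controls for 20 µM DMH1, an inhibitor of BMP receptors. 04DMSO embryos were kept in 0.4% DMSO from 3 to 6 hpf and served as controls for 40 µM SB431542, an inhibitor of Activin/Nodal receptors, which the sample labels spell SB435421. The amount of DMSO and the start of its application therefore changed together, and their parts cannot be told apart from these 4 libraries. The labels give no culture or batch, whose part cannot be told apart either. Mock embryos, the controls for recombinant BMP4 (rBMP4) and recombinant Activin A (rActivinA), received the solvent of the proteins from 4 to 6 hpf. The paper gives this solvent as HCl with bovine serum albumin (BSA), and the labels of Mock name no DMSO. The 14 libraries comprised 7 conditions with 2 replicates each, and poly(A) RNA was sequenced from all of them. Of 27040 genes with summed estimated counts, 19755 passed the filter on low counts, and 1289 of these differed between 04DMSO and 02DMSO.

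DMSO is the solvent in which drug stocks are made, so embryos in DMSO alone are the baseline from which the action of an inhibitor is read. BMP ligands signal through type I and type II serine/threonine kinase receptors, which phosphorylate SMAD1/5/8, while Chordin binds BMP ligands outside the cell and keeps them from their receptors. In many bilaterian embryos this pathway sets up the dorsoventral axis.

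The estimated counts of the 4 DMSO libraries summed to between 16316525 and 22730006, within the range of 9416790 to 59916462 over the 14 libraries. The labels do not say whether the replicates came from separate cultures, so the p-values measure the spread between these libraries, which may be technical. The 02DMSO replicates were further apart than those of the other controls, with 3023 of 19755 genes at least 2-fold apart, against 1319 for the 04DMSO replicates and 936 for the Mock replicates. Between a 02DMSO and a 04DMSO library, 3513 to 4646 genes were at least 2-fold apart. The lowest of these values, for replicate 1 of both groups, was only slightly above the number between the 02DMSO replicates. With 2 libraries in a group, an exact permutation test of a single gene cannot reach 0.05, and genes were tested with edgeR's quasi-likelihood test in a fit of the 6 control libraries with 3 residual degrees of freedom.

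Under this test, 745 genes were higher and 544 lower in 04DMSO than in 02DMSO. A gene was called where the Benjamini-Hochberg adjusted p was under 0.05 and the groups were at least 1 apart on the log2 scale. These were 6.52% of the genes tested, 3.77% higher and 2.75% lower. Among genes whose higher group averaged at least 10 CPM, the largest difference was that of OFUSG11134, close to absent in 02DMSO and at 40.3 CPM or more in both 04DMSO libraries (CPM, each count divided by the TMM-normalised size of its library). The median log2 fold change was 1.95 among the genes higher in 04DMSO and -1.41 among the genes lower. All 1289 had 02DMSO and 04DMSO libraries that did not overlap, as had 58.2% of all genes tested. In 29 of them, one of the DMSO groups held no count at all. Those 29 include the 20 genes whose fitted change exceeded that of OFUSG11134, none above a mean of 4.12 CPM, and fitted changes of such genes are no measure of a fold.

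The number of called genes depended on single libraries, as the plot of calls by setting shows. Without 04DMSO replicate 2, 62 genes were called, 61 of them among the 1289, and the fit lacking 04DMSO replicate 1 called 411. Fits without Mock replicate 1 or 2 also called fewer genes than the fit of the 6 control libraries. The Mock libraries take no part in the contrast, but they enter the filter, the normalisation and the estimate of the spread. Removing 02DMSO replicate 1 gave 2402 and removing its replicate 2 gave 1725. Across these 6 fits, 60 of the 1289 genes were called in every one, 41 higher and 19 lower. DESeq2 on the same 6 libraries called 1281 genes, of which 1149 were among the 1289. An edgeR fit of the 4 DMSO libraries alone called 867 genes, 852 of them among the 1289 (66.1% of these).

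**Figure D1:**
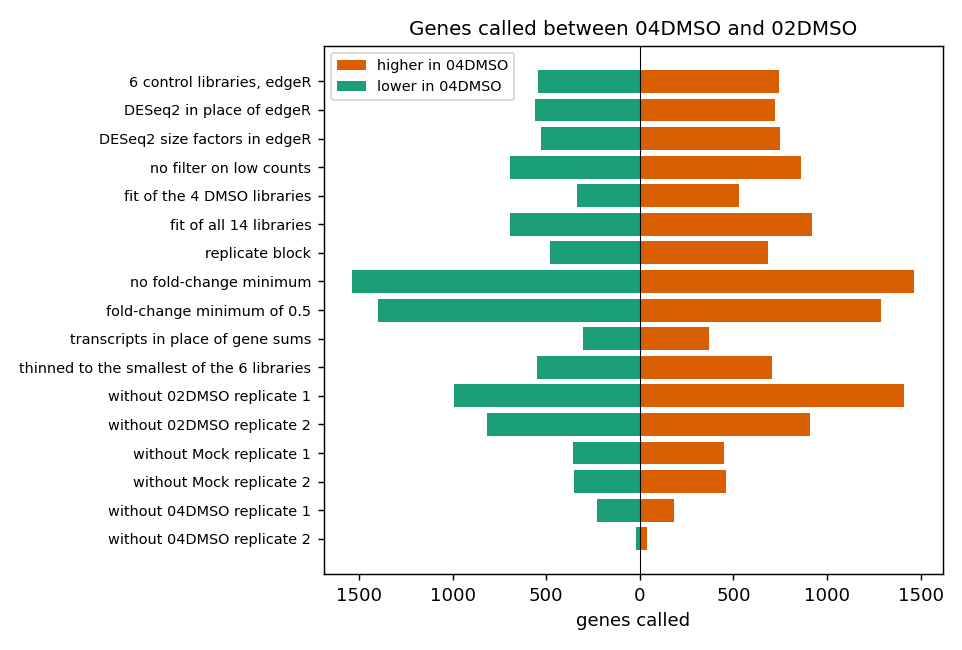
Number of genes called between 04DMSO and 02DMSO under each setting, with genes higher in 04DMSO to the right and genes lower in 04DMSO to the left of 0. The top bar is the fit of the 6 control libraries, with 745 higher and 544 lower, and the bottom bar, without 04DMSO replicate 2, is the shortest with 41 and 21.

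The differing genes were mostly of low abundance. Their median level over the 4 DMSO libraries was 4.09 CPM, against 9.19 CPM for all genes tested. Of 2086 genes above 100 CPM, 24 were called, which is 1.15%, while 12.6% of the 6022 genes between 1 and 10 CPM were. Among the 24 abundant genes 7 were higher and 17 lower in 04DMSO. The median length of the most abundant transcript of a gene was 1778 bases, against 1832 for all genes tested. More than 1 isoform was annotated for 15.2% of the differing genes and 16.1% of all tested, and in 194 of these 196 differing genes the most abundant isoform moved in the direction of the gene. The gene value is the sum of its isoforms, so this agreement is no separate support for the difference. Together the 745 genes higher in 04DMSO took 0.570% and 0.513% of the counts in the 02DMSO libraries and 1.44% and 1.45% in the 04DMSO libraries. The 544 lower genes took 1.58% and 1.92% in 02DMSO and 0.700% and 0.675% in 04DMSO. The genes were chosen for their difference between these same libraries, so the direction of these shares was set by the choice. They only describe the size of the sets.

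Genes other than those of the BMP pathway are given by identifier, since neither the files nor the gene table pair them with names. OFUSG11134, whose transcript is 14416 bases long, was at 0.408 and 0.303 CPM in 02DMSO and at 46.8 and 40.3 CPM in 04DMSO. It was as low in Mock, at 0.192 and 0.219 CPM. The log2 fold change of 04DMSO over 02DMSO was 6.93 (SE 0.258, edgeR adjusted p = 1.24e-05), the smallest adjusted p of all genes, and the call remained in each of the 6 fits with a library left out.

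OFUSG01730 stood at 0.612 and 0.303 CPM in 02DMSO and at 22.5 and 26.1 CPM in 04DMSO. The log2 fold change was 5.74 (SE 0.36, edgeR adjusted p = 0.000262). Mock was lower still, at 0.0384 and 0.131 CPM, a log2 difference of -2.37 from 02DMSO (edgeR adjusted p = 0.0257). That difference rests on 1 and 3 counts in Mock against 12 and 7 in 02DMSO. For OFUSG00908 the 02DMSO libraries were at 1.33 and 0.562 CPM and the 04DMSO libraries at 32.1 and 29.5 CPM, with a log2 fold change of 5.05 (SE 0.352, edgeR adjusted p = 0.000303). Both genes kept their call whichever of the 6 libraries was left out. OFUSG19634 rested on 10 and 0 counts in 02DMSO and reached 12.4 and 16.7 CPM in 04DMSO, and OFUSG24962 on 21 and 2 counts in 02DMSO with 18.1 and 15.9 CPM in 04DMSO. Their log2 fold changes were 5.89 (SE 0.752) and 4.93 (SE 0.65), with edgeR adjusted p of 0.00346 and 0.00384. Without 04DMSO replicate 2 the adjusted p became 0.0691 and 0.061. Their folds turned on the 02DMSO counts, with fitted changes of 4.81 and 3.98 when 02DMSO replicate 2 was left out. Without 02DMSO replicate 1 the fitted change was 7.53 for OFUSG24962 and 11.29 for OFUSG19634, whose remaining 02DMSO library holds 0 counts, so that the last value is no estimate of a fold.

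Among the abundant genes, OFUSG14317 was at 982 and 953 CPM in 02DMSO and at 2504 and 2158 CPM in 04DMSO. OFUSG02449 was at 756 and 610 CPM in 02DMSO and at 2216 and 2189 CPM in 04DMSO. OFUSG02440 was at 429 and 403 CPM in 02DMSO and at 915 and 902 CPM in 04DMSO. The replicates of each group lay close together beside the gap between the groups. The log2 fold changes were 1.27 (SE 0.0998) for OFUSG14317, 1.69 (SE 0.115) for OFUSG02449 and 1.13 (SE 0.0909) for OFUSG02440, with edgeR adjusted p of 0.000523, 0.000303 and 0.00058. All 3 kept their call in each of the 6 fits with a library left out.

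Of the genes lower in 04DMSO, OFUSG17313 was at 35.2 and 42.5 CPM in 02DMSO and at 5.23 and 4.24 CPM in 04DMSO. Its log2 fold change was -3.03 (SE 0.191, edgeR adjusted p = 0.000262). OFUSG02369 was at 32.5 and 26.9 CPM in 02DMSO and at 4.70 and 3.25 CPM in 04DMSO, with a log2 fold change of -2.89 (SE 0.252, edgeR adjusted p = 0.000911). OFUSG17927 was at 220.4 and 305 CPM in 02DMSO and at 77.2 and 74.8 CPM in 04DMSO, with a log2 fold change of -1.79 (SE 0.155, edgeR adjusted p = 0.000891). These 3 genes too were called in all 6 fits with a library left out.

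The other 3 genes named for a large decrease had uneven 02DMSO replicates. OFUSG05760 was at 22.5 CPM in 02DMSO replicate 1 and at 6.01 CPM in replicate 2, against 0.727 and 0.374 CPM in 04DMSO, a log2 fold change of -4.63 (SE 0.669, edgeR adjusted p = 0.00545). OFUSG20019 was at 8.06 and 24.0 CPM in 02DMSO against 1.21 and 1.56 CPM in 04DMSO, a log2 fold change of -3.54 (SE 0.507, edgeR adjusted p = 0.00534). In these 2 genes the groups did not overlap, yet the 02DMSO replicates were themselves several-fold apart. Leaving out 04DMSO replicate 1 gave adjusted p of 0.0508 and 0.0548, and leaving out replicate 2 gave 0.0942 and 0.0800. In OFUSG08681 a single library carried the difference, with 19.3 CPM in 02DMSO replicate 2 and 2.04 CPM in replicate 1, against 0.823 and 1.19 CPM in 04DMSO. The log2 fold change was -3.42 (SE 0.873, edgeR adjusted p = 0.0334) with all libraries and -1.03 without 02DMSO replicate 2, with an adjusted p of 0.162. Without 04DMSO replicate 1 or 2 its adjusted p was 0.173 and 0.201.

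The most abundant genes lower in 04DMSO shared this unevenness. OFUSG18429 was at 2587 and 4097 CPM in 02DMSO and at 1305 and 1489 CPM in 04DMSO. OFUSG04961 was at 787 and 1511 CPM in 02DMSO and at 473 and 516 CPM in 04DMSO. OFUSG15598 was at 568 and 354 CPM in 02DMSO and at 188 CPM in both 04DMSO libraries. The log2 fold changes were -1.26 (SE 0.202), -1.22 (SE 0.245) and -1.30 (SE 0.19), with edgeR adjusted p of 0.00787, 0.0163 and 0.0057. Without 02DMSO replicate 2 the change of OFUSG18429 was -0.89 and that of OFUSG04961 was -0.67, and without 02DMSO replicate 1 that of OFUSG15598 was -0.91, all under the fold minimum. Without 04DMSO replicate 1 the adjusted p of the 3 genes ran from 0.0515 to 0.0952, and without replicate 2 from 0.0844 to 0.135.

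A graded response to DMSO would order the controls as Mock, 02DMSO and 04DMSO, and would place Mock beyond 02DMSO. The position of Mock was therefore expressed on the mean log2 CPM as its distance from 02DMSO divided by the distance from 02DMSO to 04DMSO. A value below 0 lies beyond 02DMSO, 0 to 1 lies between the DMSO groups, and above 1 lies beyond 04DMSO. These positions share the DMSO libraries with the choice of the genes and have no test. Mock also had a solvent of its own, so its position holds any part of HCl and BSA, which was not tested.

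Mock lay between the DMSO groups for most of the differing genes, and nearer to 02DMSO. Of the 1289 genes, 791 (61.4%) had Mock between, 371 (28.8%) had Mock beyond 02DMSO and 127 (9.85%) had Mock beyond 04DMSO. Over all genes tested, most of which hardly differed between the DMSO groups, the shares were 23.9%, 44.7% and 31.4%. The median position was 0.256, with quartiles of -0.0501 and 0.634. Mock was nearer to 02DMSO than to 04DMSO in 870 genes (67.5%), against 57.9% of all genes tested. Genes higher and lower in 04DMSO were alike in this, with median positions of 0.233 and 0.297 and with 29.4% and 27.9% of them beyond 02DMSO.

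**Figure D2:**
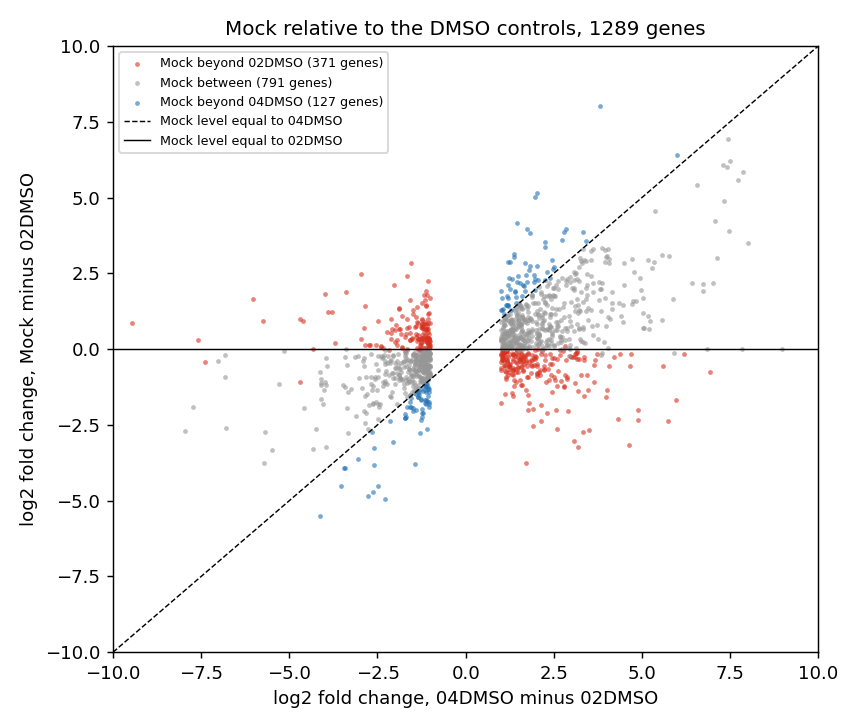
Log2 fold change of Mock over 02DMSO against that of 04DMSO over 02DMSO, with 1 point for each of the 1289 genes called between the DMSO groups. Colours give the position of Mock by mean log2 CPM, so a few points near a line differ in side from the fitted values, and most points lie between the solid line (level of 02DMSO) and the dashed line (level of 04DMSO).

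The share beyond 02DMSO was smaller in larger differences, but bins and positions are measured from the same 02DMSO libraries, so this has no test. It was 31.6% of the 781 genes with a log2 difference of 1 to 2, 25.2% of 278 genes with 2 to 3, and 23.5% of 230 genes with 3 or more. The median position moved little over these bins, from 0.258 to 0.257 and 0.248. Among the 60 genes called whichever library was left out, Mock was beyond 02DMSO in 19, between in 37 and beyond 04DMSO in 4, with a median position of 0.145. The share beyond 02DMSO was 18.5% without 02DMSO replicate 1, with 22.1% beyond 04DMSO, and it was 39.7% without 04DMSO replicate 1, with 4.38% beyond 04DMSO. Counted by single libraries, both Mock libraries lay beyond both of 02DMSO in 212 genes (16.4%, against 16.3% of all genes tested) and between the DMSO groups in 460 (35.7%, against 6.79%). They lay beyond both 04DMSO libraries in 84 genes (6.52%, against 10.1%), and they overlapped 02DMSO in 410 (15.1% of all genes tested did) and 04DMSO in 123 (7.99%).

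In the contrast of Mock against 02DMSO, which shares the 02DMSO libraries with the choice of the genes, 45 of the 1289 passed the same thresholds away from 04DMSO, as a graded series would have it. That is 3.49%, against 3.80% of all genes tested. In the other direction, towards 04DMSO, 272 genes passed (21.1%, against 8.68%). Against 04DMSO, with whose libraries the genes were likewise chosen, Mock passed on the side of 02DMSO in 687 genes (53.3%, against 15.8%) and on the far side in 21 (1.63%, against 3.02%). Neither contrast passed in 346 (26.8%), for which the share over all genes tested was not counted. Refits with a library left out call another set of genes between the DMSO groups, so their counts are over that set. The genes away from and towards 04DMSO were 19 and 106 of 808 without Mock replicate 1 (2.27% and 3.93% of all genes tested) and 10 and 113 of 813 without Mock replicate 2 (1.58% and 4.08%). They were 13 and 57 of 411 without 04DMSO replicate 1 (3.13% and 6.17%) and 0 and 15 of 62 without 04DMSO replicate 2 (2.67% and 6.62%). They were 64 and 956 of 2402 without 02DMSO replicate 1 (3.73% and 15.0%) and 80 and 456 of 1725 without 02DMSO replicate 2 (3.53% and 8.37%). Against 04DMSO, the genes on the side of 02DMSO and on the far side were 402 and 7 of the 808 (10.4% and 1.62% of all genes tested) and 344 and 10 of the 813 (7.73% and 1.57%) in the fits without a Mock library. They were 292 and 2 of the 411 (12.1% and 1.51%) and 41 and 0 of the 62 (7.24% and 1.41%) in those without a 04DMSO library. They were 988 and 134 of the 2402 (16.6% and 5.50%) and 960 and 41 of the 1725 (18.6% and 3.57%) in those without a 02DMSO library.

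The 3 placements of Mock are seen in single genes. OFUSG14317, higher in 04DMSO, was lowest in Mock at 618 and 652 CPM, a log2 difference of -0.61 from 02DMSO (edgeR adjusted p = 0.00315), so its levels rose in the order Mock, 02DMSO, 04DMSO. OFUSG06525 had the same order, with 48.1 and 45.4 CPM in Mock, 68.5 and 56.8 CPM in 02DMSO and 132 and 119.8 CPM in 04DMSO. Its log2 fold change between the DMSO groups was 1.01 (SE 0.134, edgeR adjusted p = 0.0039), which became 0.88 without 02DMSO replicate 2 and 0.94 when 04DMSO replicate 1 was left out, and its adjusted p was 0.0527 without 04DMSO replicate 2. In both genes no library of one group overlapped another group.

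Of the genes lower in 04DMSO, levels fell in the order Mock, 02DMSO, 04DMSO in OFUSG20158, with 265 and 273 CPM in Mock, 162 and 134 CPM in 02DMSO and 68.9 and 71.1 CPM in 04DMSO. The log2 difference was 0.86 between Mock and 02DMSO (edgeR adjusted p = 0.00172) and -1.08 between 04DMSO and 02DMSO (SE 0.122, edgeR adjusted p = 0.00237). OFUSG13380 followed it, with 350.4 and 445 CPM in Mock, 277 and 222 CPM in 02DMSO and 135 and 100.35 CPM in 04DMSO, a log2 fold change of -1.09 between the DMSO groups (SE 0.179, edgeR adjusted p = 0.00851). Without 02DMSO replicate 1 these changes were -0.94 and -0.92, below the fold minimum, and without 04DMSO replicate 2 the adjusted p was 0.0527 and 0.108.

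In other genes Mock lay between. OFUSG02440 was at 817 and 792 CPM in Mock, close to 04DMSO (log2 difference of -0.18, edgeR adjusted p = 0.151) and above 02DMSO by 0.95 on the log2 scale (edgeR adjusted p = 0.000438). OFUSG14964 was at 261 and 214 CPM in Mock, at 164 and 142 CPM in 02DMSO and at 290.4 and 326 CPM in 04DMSO. Its log2 fold change between the DMSO groups was 1.01 (SE 0.135, edgeR adjusted p = 0.00403), which became 0.91 without 02DMSO replicate 2 and had an adjusted p of 0.068 without 04DMSO replicate 2. Both genes therefore had Mock apart from 02DMSO on the side of 04DMSO.

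Of the lower genes with Mock between, OFUSG17313 was at 20.8 and 19.7 CPM in Mock and OFUSG02369 at 6.03 and 8.28 CPM. OFUSG17927 was at 132 and 133 CPM in Mock. OFUSG20018 was at 168 and 154 CPM in Mock, at 173 and 210.3 CPM in 02DMSO and at 82.8 and 94.9 CPM in 04DMSO. The last of these differed little from 02DMSO in Mock (log2 difference of -0.25, edgeR adjusted p = 0.186), and its change between the DMSO groups was -1.11 (SE 0.135, edgeR adjusted p = 0.00291). That change was -0.96 without 02DMSO replicate 2 and had an adjusted p of 0.0525 without 04DMSO replicate 2.

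In a smaller group the Mock libraries lay beyond those of 04DMSO. OFUSG04378 was at 107 and 102 CPM in Mock, at 31.0 and 17.8 CPM in 02DMSO and at 51.4 and 60.8 CPM in 04DMSO. OFUSG04390 was at 36.4 and 32.1 CPM in Mock, at 12.1 and 5.32 CPM in 02DMSO and at 20.8 and 20.5 CPM in 04DMSO. The log2 fold changes between the DMSO groups were 1.21 (SE 0.229, edgeR adjusted p = 0.0135) and 1.26 (SE 0.312, edgeR adjusted p = 0.0306). Without 02DMSO replicate 2 they were 0.86 and 0.77, that of OFUSG04390 was 1.96 without 02DMSO replicate 1, and without 04DMSO replicates 1 or 2 the adjusted p was 0.0551 or 0.13 for OFUSG04378 and 0.121 or 0.175 for OFUSG04390. For OFUSG04390 it was also 0.0565 without Mock replicate 1 and 0.0534 without Mock replicate 2. OFUSG18429 and OFUSG04961 were lowest in Mock, at 576 and 739.5 CPM and at 279 and 251 CPM, below both 04DMSO libraries, so 04DMSO stood between the other controls. OFUSG20019 and OFUSG08681 had the same order, with 0.653 and 0.744 CPM and 0.730 and 0.657 CPM in Mock. These placements rest on 17 and 17 counts in Mock against 25 and 25 in 04DMSO, and on 19 and 15 against 17 and 19. The log2 difference of Mock from 04DMSO was -0.97 for OFUSG20019 (edgeR adjusted p = 0.216) and -0.51 for OFUSG08681 (edgeR adjusted p = 0.702). It was 0.89 for OFUSG04378 and 0.73 for OFUSG04390 (edgeR adjusted p = 0.013 and 0.0808). For OFUSG18429 and OFUSG04961 it was -1.09 and -0.90 (edgeR adjusted p = 0.00363 and 0.0182).

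The same question was put from the other pairs of controls. Of the 3725 genes called between Mock and 04DMSO (18.9% of all tested), 02DMSO lay between in 2781 (74.7%, against 44.8% of all genes tested), beyond 04DMSO in 603 and beyond Mock in 341. Of the 2473 genes called between Mock and 02DMSO (12.5%), 04DMSO lay between in 1569 (63.4%, against 31.4%), beyond 02DMSO in 750 and beyond Mock in 154. So the group not used to choose the genes lay between the other groups in most genes for each of the 3 pairs. Each choice of genes shares its libraries with the positions, and these counts have no test.

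The other treated groups were placed on the same scale in a fit of all 14 libraries. SB431542 embryos, whose DMSO control was 04DMSO, lay near 04DMSO, and the other groups lay nearer to 02DMSO. The median positions of the SB431542 libraries were 0.917 and 0.95, and 90.8% and 93.4% of the 1289 genes were nearer to 04DMSO there. DMH1 had medians of 0.347 and 0.372, Mock 0.3 and 0.24, rBMP4 0.25 and 0.249, and rActivinA 0.309 and 0.329. In these 8 libraries 29.3% to 38.6% of the genes were nearer to 04DMSO. A median between the DMSO groups was therefore not particular to Mock. Both DMH1 libraries were on the 04DMSO side of both 02DMSO libraries in 763 genes (59.2%). The share over all genes was not counted, and 02DMSO helped to choose the genes, so nothing about DMH1 was read from it. Against 02DMSO, whose libraries helped to choose the genes, DMH1 was called towards 04DMSO in 291 and away from it in 34. Over all genes tested in that fit, 8.39% were called between DMH1 and 02DMSO. The inhibitor groups carry the same treatment window as the DMSO group that served as their control. The shared solvent amount, the shared window and any shared culture or batch, which the labels do not give, cannot be told apart.

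**Figure D3:**
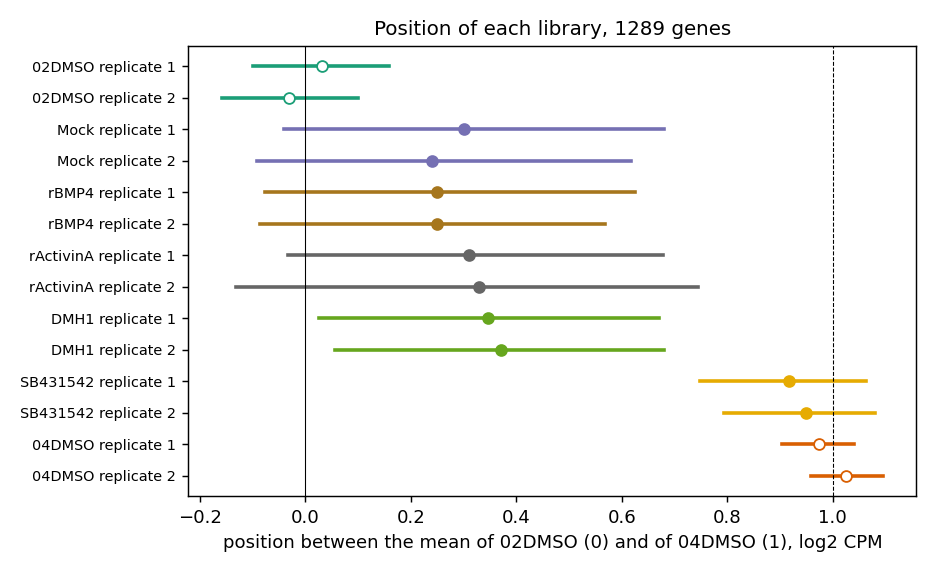
Position of each of the 14 libraries for the 1289 genes, from the mean of 02DMSO at 0 to the mean of 04DMSO at 1, on log2 CPM. Points are medians over genes and bars run from the lower to the upper quartile, and open points are the 4 libraries that chose the genes. The SB431542 libraries lie at 0.917 and 0.95, and the libraries treated from 4 hpf at 0.372 or less.

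The contrast of SB431542 against DMH1 shares no library with the choice of the genes. In the fit of all 14 libraries, 343 of the 745 genes higher in 04DMSO were also called higher in SB431542 than in DMH1 (46.0%, against 5.10% of all genes tested), and 16 were called lower. Of the 544 genes lower in 04DMSO, 168 were called lower in SB431542 (30.9%, against 4.95%) and 6 were called higher. The median log2 difference between SB431542 and DMH1 was 1.19 for the first set and -0.71 for the second, and -0.00067 over all genes tested. With only the 4 libraries of SB431542 and DMH1 in the fit, 576 of the 1270 tested members were called with the DMSO difference and 22 against it, where 7.02% of all genes tested were called higher and 7.25% lower. In the fit of all 14 libraries these counts were 511 and 22. Leaving out each of the 4 libraries in turn gave 379 to 421 and 16 to 19, with 2.91% to 3.37% of all genes tested called higher and 2.57% to 3.22% lower. The comparison also holds the difference between the inhibitors, whose part was not tested.

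In 583 of the 1289 genes (45.2%) all 4 libraries treated from 3 hpf lay apart from all 10 libraries treated from 4 hpf, in 412 above and in 171 below. This held for 9.71% of the 21574 genes tested in that fit, and 4 of these libraries chose the 1289 genes. OFUSG11134 was at 47.1 and 40.4 CPM in 04DMSO and 56.0 and 42.8 CPM in SB431542, in the scaling of all 14 libraries. In the 10 other libraries it did not exceed the 0.630 CPM of DMH1 replicate 2. OFUSG01730 was at 19.8 and 29.5 CPM in SB431542 and at 0 in both DMH1 libraries, and among the libraries treated from 4 hpf it reached at most 5.05 CPM, in rActivinA replicate 2. OFUSG05760 was at 0.501 and 0.706 CPM in SB431542 and at 17.9 and 16.2 CPM in DMH1. OFUSG20158 was at 72.0 and 74.8 CPM in SB431542 and at 129 and 146 CPM in DMH1. These genes thus had the level of 04DMSO in SB431542, the inhibitor group for which it served as control.

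Not all genes had SB431542 at the level of 04DMSO and apart from the other groups. OFUSG14317 was at 2519 and 2165 CPM in 04DMSO but at 1227 and 1430 CPM in SB431542. That range overlapped the 1738 and 1112 CPM of rActivinA and the 1043 and 1248 CPM of DMH1. OFUSG02449 likewise stood at 1229 and 1592 CPM in SB431542, against 2229 and 2196 CPM in 04DMSO and 1648 and 1063 CPM in rActivinA. For this gene DMH1 was at 1077 and 1246 CPM, and the rBMP4 replicates were uneven at 1123 and 402 CPM. OFUSG02440 was at 789 and 876 CPM in SB431542, at 836 and 842 CPM in rActivinA and at 849 and 817 CPM in rBMP4, while DMH1 stayed near 02DMSO at 493 and 528 CPM. For this gene 02DMSO and DMH1 were low and the other groups high. OFUSG20019 was at 21.2 and 22.4 CPM in DMH1 and at 21.9 and 16.6 CPM in rActivinA, near 02DMSO, but at 0.343 and 0.657 CPM in rBMP4, as in Mock.

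**Figure D4:**
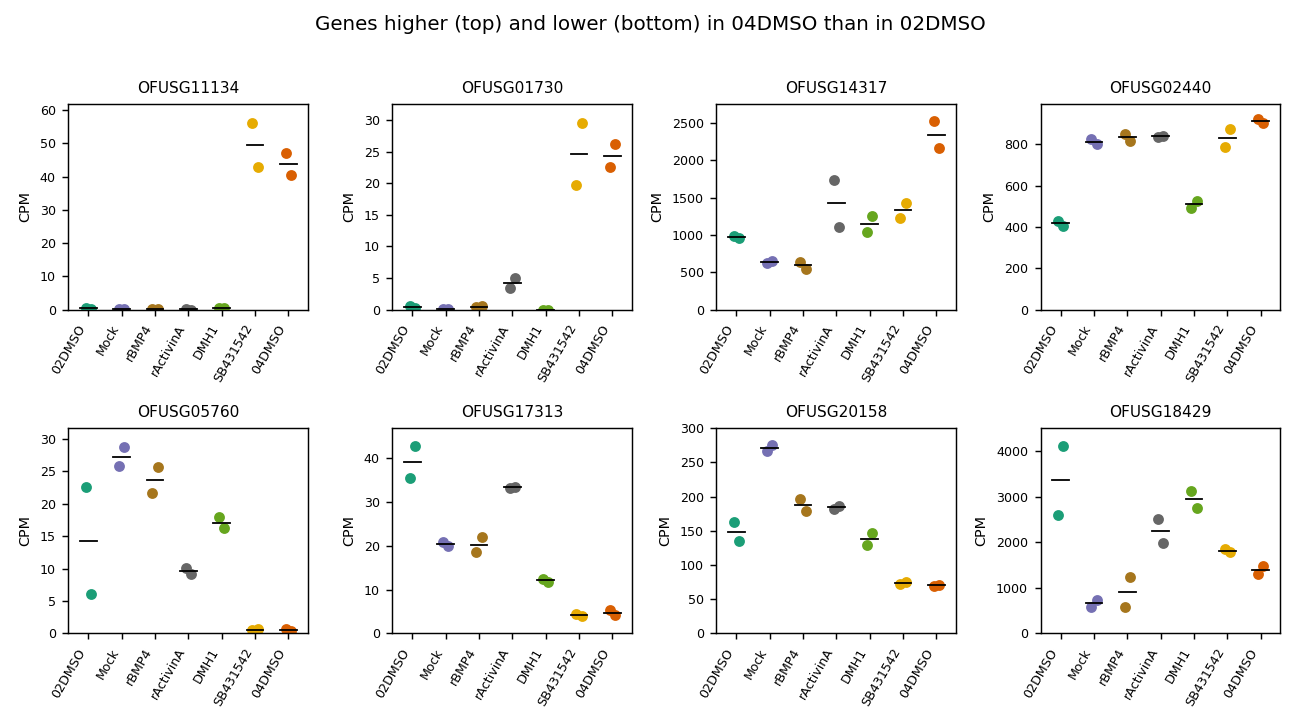
CPM, scaled over all 14 libraries, of 8 genes by group, with points for libraries and a line for the mean of the 2 replicates, on linear axes that start at 0. The upper genes were higher and the lower genes were lower in 04DMSO than in 02DMSO, and OFUSG11134, OFUSG01730, OFUSG05760 and OFUSG20158 show 04DMSO and SB431542 apart from the other groups.

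The 6 BMP pathway genes were chosen for their place in the pathway. None of the 6 was called with the fold minimum by edgeR or DESeq2 (6.52% of all genes tested were by edgeR). An adjusted p below 0.05 was reached by 1 of them, against 15.2% of all genes tested, and an unadjusted p below 0.05 by 1, against 32.6%. Their log2 fold changes of 04DMSO over 02DMSO ran from -0.44 to 0.23, with a median of -0.17 beside a median of -0.04 and quartiles of -0.43 and 0.38 for all genes tested. In 3 of the 6 the DMSO libraries did not overlap, against 58.2% of all genes tested. These shares are near those of all genes, and nothing particular to the pathway was read from them.

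Of the ligands, *bmp2/4* (OFUSG12159) was at 83.9 and 78.7 CPM in 02DMSO, at 79.0 and 75.4 CPM in 04DMSO and at 78.4 and 78.7 CPM in Mock. The 3 groups overlapped, and the log2 fold change between the DMSO groups was -0.07 (SE 0.113, edgeR adjusted p = 0.684), or between -0.12 (without 02DMSO replicate 2) and -0.03 (without 02DMSO replicate 1) with a library left out. The ligand gene *bmp5-8* (OFUSG23310) was at 107 and 91.7 CPM in 02DMSO, at 111 and 121 CPM in 04DMSO and at 152 and 137 CPM in Mock. Its log2 difference was 0.23 between the DMSO groups (SE 0.125, edgeR adjusted p = 0.235) and 0.55 between Mock and 02DMSO (edgeR adjusted p = 0.0125). The DMSO difference was 0.34 without 02DMSO replicate 1 and 0.12 without its replicate 2. Mock was thus the highest of the 3 controls for this gene, on the side of 04DMSO.

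The antagonist gene *chordin* (OFUSG13105) was at 548 and 461 CPM in 02DMSO, at 537 and 558 CPM in 04DMSO and at 899 and 905 CPM in Mock. The DMSO groups overlapped, with a log2 fold change of 0.12 (SE 0.106, edgeR adjusted p = 0.471) that was -9.14e-05 without 02DMSO replicate 2. Mock was above both, by 0.84 against 02DMSO and 0.72 against 04DMSO on the log2 scale (edgeR adjusted p = 0.00119 and 0.00136). The DMSO controls were therefore closer to each other than either was to Mock.

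The type II receptor gene *bmpr2* (OFUSG26337) was the one pathway gene with an adjusted p below 0.05. It was at 55.0 and 53.9 CPM in 02DMSO, at 40.9 and 39.6 CPM in 04DMSO and at 61.6 and 63.0 CPM in Mock, so the order was that of a graded series and no library overlapped another group. The log2 fold change between the DMSO groups was -0.44 (SE 0.119, edgeR adjusted p = 0.0409), and the difference between Mock and 02DMSO was 0.19 (edgeR adjusted p = 0.244). The adjusted p of the DMSO difference was 0.11 and 0.112 without Mock replicates 1 and 2, 0.125 and 0.23 without 04DMSO replicates 1 and 2, and 0.11 in a fit of the 4 DMSO libraries alone. In the scaling of all 14 libraries *bmpr2* was at 41.2 and 40.4 CPM in SB431542, at the level of 04DMSO, but DMH1 was as low, at 38.0 and 36.9 CPM.

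The type I receptor gene *bmpr1* (OFUSG18180) was at 134 and 163 CPM in 02DMSO, at 134 and 96.7 CPM in 04DMSO and at 129.9 and 165 CPM in Mock. The log2 fold change was -0.36 (SE 0.184, edgeR adjusted p = 0.206) and the groups overlapped. It was -0.62 without 04DMSO replicate 1, -0.14 without 04DMSO replicate 2 and -0.21 without 02DMSO replicate 2. The gene of the intracellular effector, *smad1/5/8* (OFUSG02732), was at 438 and 381 CPM in 02DMSO, at 371 and 310.5 CPM in 04DMSO and at 422 and 404 CPM in Mock. Its 04DMSO libraries were the lowest of the 6, with a log2 fold change of -0.27 (SE 0.121, edgeR adjusted p = 0.164), and Mock lay within the range of 02DMSO. That fold change was -0.40 without 04DMSO replicate 1, -0.14 without 04DMSO replicate 2 and -0.16 without 02DMSO replicate 1.

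**Figure D5:**
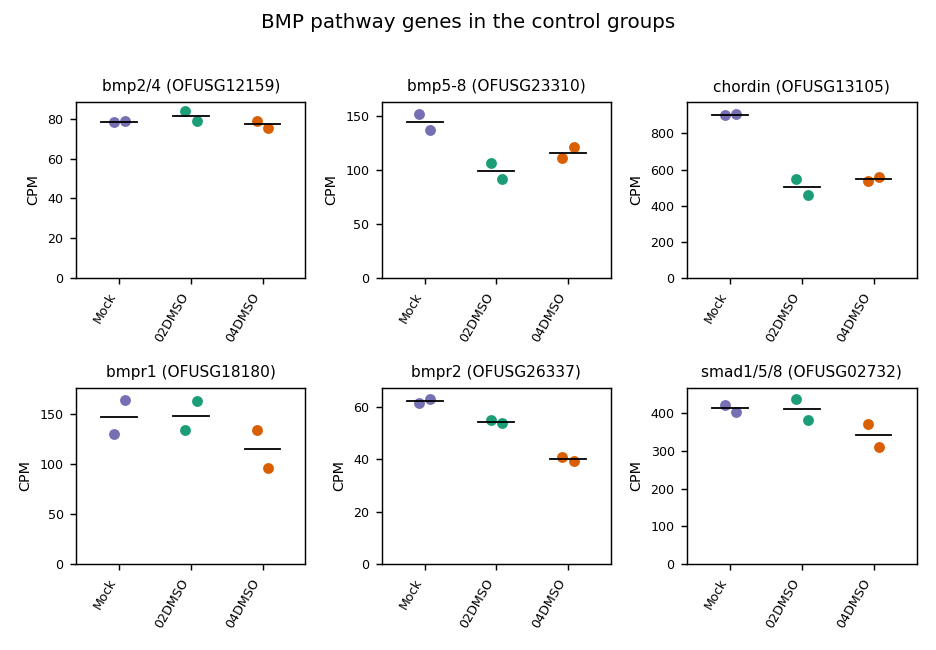
CPM of the 6 BMP pathway genes in the 3 control groups, in the order Mock, 02DMSO and 04DMSO. The labels of Mock give no DMSO amount. Points are libraries and lines are means of the 2 replicates, on linear axes that start at 0. The groups are apart for *bmpr2*, from 61.6 and 63.0 in Mock to 40.9 and 39.6 in 04DMSO, and Mock stands above both DMSO groups for *chordin*.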

How the data were processed

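Whole-embryo libraries of 7 conditions with 2 replicates each were grouped by their sample titles. The authors assigned trimmed paired reads to the *O. fusiformis* transcripts with kallisto (version 0.46.2 per the labels, which also name DESeq2 1.26.0). A kallisto strand option was not given in the sources used here. Tested values are the deposited estimated counts per transcript, which carry no normalization. The authors also deposited TPM, scaled for length and to the same total per library, used here for 1 alternative, and transcript lengths in bases, used as a description. The DMH1 files list 31978 transcripts and the others 31979, and the 31977 shared transcripts were summed to 27040 genes and rounded.

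In R 4.3.3, edgeR 4.0.16 was run with filterByExpr, TMM and quasi-likelihood tests on the 6 control libraries in 3 groups, adjusted by Benjamini-Hochberg over the 19755 genes tested. Positions used log2 CPM with a prior count of 2. SEs were derived from the test statistics. Groups have 2 libraries, and both values are printed in place of a mean and SD. The fit of all 14 libraries had 7 residual degrees of freedom. The procedure was also run on simulated counts with a single common dispersion for all genes. These do not carry the uneven spread of the 02DMSO replicates, so that run does not bear on how calls depended on single libraries.

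Named genes were the 6 BMP genes that the study's source data pair with names. Also named were, in each direction, the 5 called genes with the largest fold change among those with a mean of at least 10 CPM in the higher group and no overlap, the 3 most abundant called genes, and the 2 most abundant for each placement of both Mock libraries. The members and lists were chosen with earlier results of these data known. Of the gene identifiers, 0 matched the RefSeq gene table, so no gene names or sequences were taken from it. Alternatives were DESeq2 (version 1.42.0), its size factors, no filter, other fold minimums, other fits, the replicate number as a block, transcripts, thinning, another prior count, TPM, and leaving out each library. The contrast of SB431542 with DMH1, the positions from the other control pairs, the bins of size and the genes called in every fit were chosen after seeing the data.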

Additional observations from a re-analysis of the deposited data

How the results depend on the processing

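The count of 1289 genes stayed within 1.5 times of its value with DESeq2 (1281), its size factors (1276), no filter (1555), a fit of the 4 DMSO libraries (867) or of all 14 (1616), and thinning (1256). It was 674 for transcripts in place of gene sums (the cause was not tested), 2687 at a log2 minimum of 0.5 and 3004 with none. Leaving out a library gave 62 to 2402 genes. The share of genes with Mock beyond 02DMSO was 36.5% with no fold minimum, 18.5% to 39.7% over the leave-outs, and 28.2% to 30.4% under the other settings. Over the leave-outs, each with its own set of called genes, the genes in which Mock passed against 02DMSO were 0 to 80 away from 04DMSO and 15 to 956 towards it, and against 04DMSO 41 to 988 towards 02DMSO and 0 to 134 away from it. The replicate number did not pair the libraries: deviations of same-numbered libraries correlated at -0.00695, 0.0657 and -0.087 across 19755 genes in the 3 pairs of control groups. With the replicate block 1164 genes were called, 1111 of them among the 1289, and Mock was beyond 02DMSO in 30.0%. Where a group is left with 1 library, that library is assumed to vary like the others. Of the 24 called genes named, 9 were called in every leave-out. OFUSG04390 and OFUSG08681 lost the call with only the 4 DMSO libraries (adjusted p 0.0553 and 0.0507). The log2 change of *chordin* (OFUSG13105) was between -9.14e-05 and 0.25 over the leave-outs, so its sign turned without 02DMSO replicate 2. Below 1 CPM, where counts are few, 4.80% of 4080 genes were called. The shares were 12.6% from 1 to 10 CPM, 4.08% from 10 to 100 CPM and 1.15% above 100 CPM. The part of depth in these shares was not tested.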
